A study of Mus musculus with 4 samples.

Results

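The complement system was followed here through 31 genes: components of its activation pathways, regulators in the fluid phase and on membranes, and receptors. Members were the genes whose name on the array was one of these 31, with the brightest probe standing for a gene, and all 31 had a probe among the 27962 gene names of the array. RNA came from the livers and spleens of C57BL/6J males of 13 weeks that received 1 of 2 diets for 4 weeks. The control diet (low NP) was a purified diet with 0.03% nucleic acids, and the treatment diet (NP) was this diet with 1.2% of a nucleoprotein product added, which brought nucleic acids to 0.5%. RNA was pooled by diet within each tissue before labelling, how many mice a pool held is not stated, and each tissue was hybridised on 2 arrays read in both dyes, array 1 with the NP pool in Cy5 and array 2 with that pool in Cy3. The numbers 1 and 2 that the labels give to pooled samples follow the dye order, and it is unsaid if the arrays of a tissue shared their pools. Here they were taken for technical repeats of 1 NP and 1 low-NP pool with swapped dyes, so that each diet and tissue has 1 sample, the diets could not be tested and p-values are not given.

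Complement is a cascade of plasma proteases that tags and lyses targets. The classical pathway starts when C1q binds antibody, the lectin pathway when mannose-binding lectins bind sugars on a surface, and both cleave C4 and C2, whereas the alternative pathway runs by itself on C3, factor B, factor D and properdin. All 3 routes cleave C3 and then C5, and the terminal components C6 to C9 assemble a membrane pore. Hepatocytes make most of the soluble proteins, macrophages are a main source of C1q, and spleen holds the B cells, follicular dendritic cells and myeloid cells that carry receptors for cleaved C3.

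Values are given first as normalized log2 levels in each pool on each array, which can be compared within a probe only, and then as log2 ratios of NP over low NP. A gene counted as measured where each array of the tissue had its probe well above background in 1 dye or more, and as called where the ratio reached 1.5-fold on each array with the same sign. Between 58.6% and 67.5% of probes were well above background in a channel of 3 arrays, but 93.1% and 94.7% in those of spleen array 1. On that array the flag thus set few probes apart. Spleen array 1 stood apart: its negative control spots had a median signal of 156 in Cy3 and 307 in Cy5, against 62.7 to 74.0 in the channels of the other 3 arrays, so the members' spleen ratios are given for each array. Of all 17100 measured gene names in liver, 3.7% were called, 3.63% lower and 0.0702% higher in the NP pool. Among 18567 in spleen these shares were 6.37%, 6.33% and 0.0431%. With the scanner software's own processed signals the liver shares were 10.3% lower and 1.77% higher.

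Most of the called members were in spleen. Of 29 measured members, 17 were called lower in the NP spleen pool and 0 higher, against the 6.37% of all genes called in either direction (6.33% lower and 0.0431% higher). The median member ratio was -1.07, with -0.94 on array 1 and -1.22 on array 2, beside -0.02 over all measured genes. All 6 terminal components, all 4 lectin pathway genes and 3 of 4 fluid-phase regulators were called, but only 1 of 6 classical pathway genes, 2 of 4 genes of C3 and the alternative pathway, 1 of 2 membrane regulators and 0 of 3 receptors. On array 2 alone, without the array that stood apart, 17 members were lower by 1.5-fold, and 18 were on array 1 alone. Over all genes the shares lower were 9.05% and 6.72%. A member called on both arrays passes on each alone, so these member counts could not fall below 17.

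Markers of other cell types moved with these calls. In spleen, 9 of 9 hepatocyte markers were called lower in the NP pool, with a median ratio of -6.65, and their median level was 9.08 in the NP pool (range 6.85 to 11.2, with 7 of 9 above background on both arrays) against 15.5 in the low-NP pool (11.9 to 17.8). The 7 exocrine pancreas markers were all called lower too, at a median of -2.15, while 0 of 9 B cell, 0 of 8 T cell, 0 of 6 neutrophil, 0 of 7 stromal and endothelial and 2 of 10 macrophage markers were called. The part of these cells in the complement ratios was not tested. In RNA of whole tissue, fewer cells of a type, less RNA per cell and other sources of these transcripts cannot be told apart.

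**Figure D1:**
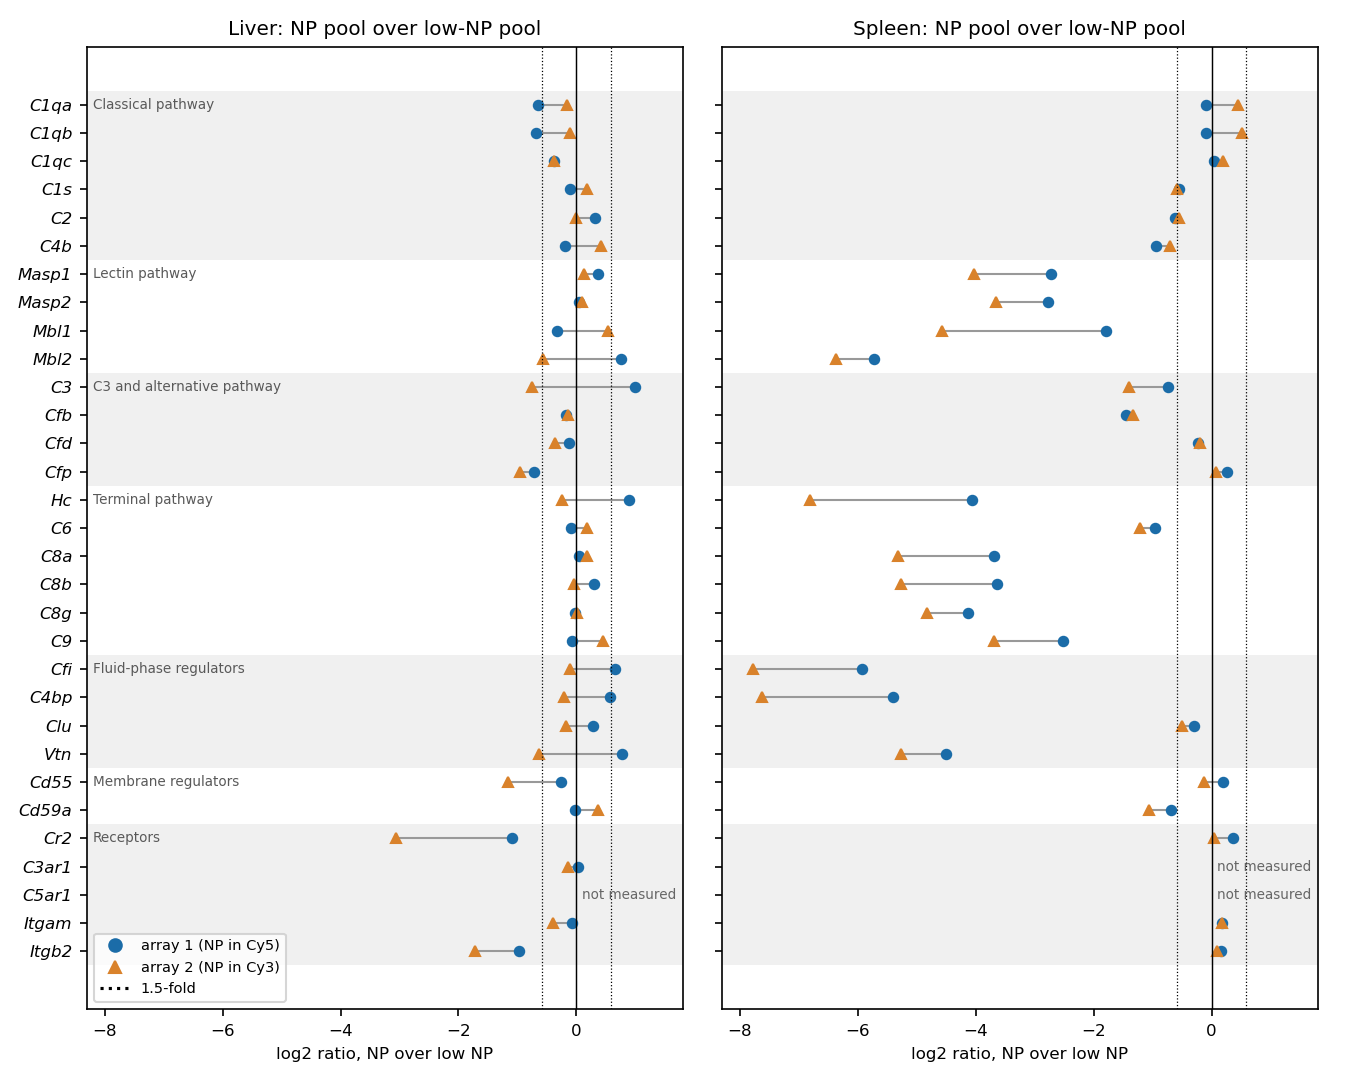
Log2 ratio of NP over low NP for each of the 31 members, grouped by role, in liver (left) and spleen (right). Circles are array 1, triangles are array 2, and dotted lines mark 1.5-fold. The lowest spleen ratios are -6.37 for lectin, -6.81 for terminal and -7.78 for fluid-phase genes. Liver ratios pass the lines on both arrays in the same direction for Cfp, Cr2 and Itgb2 only.

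Within the lectin pathway, Mbl2, a mannose-binding lectin, had levels of 9.77 and 9.13 in the NP spleen pool on arrays 1 and 2, and 15.48 and 15.50 in the low-NP pool. The low-NP levels lay far above both NP levels, with ratios of -5.72 and -6.37. Mbl1, the other mannose-binding lectin of mice, had NP levels of 10.11 and 7.29 and low-NP levels of 11.90 and 11.86. Its ratios of -1.79 and -4.57 differed more between arrays than those of any other member in spleen. The low-NP levels were alike and the NP level was the higher on array 1, the one with the high background. The associated serine proteases were lower as well: Masp1 had ratios of -2.72 and -4.04 and Masp2, which cleaves C4 and C2, had -2.77 and -3.65. Other measured probes of these proteases gave smaller means, -1.97 and -0.76 for Masp1 and -2.77 and -2.33 for Masp2, all below 0.

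Among the terminal components, Hc, the gene of C5, had NP levels of 10.87 and 8.13 and low-NP levels of 14.94 and 14.93 in spleen. The low-NP levels were nearly equal on both arrays and the NP level varied, which gave ratios of -4.07 and -6.81. For the 3 chains of C8, the ratios on arrays 1 and 2 were -3.68 and -5.33 for C8a, -3.64 and -5.26 for C8b, and -4.13 and -4.82 for C8g. Their means lay close together, at -4.50, -4.45 and -4.48, while the arrays differed more than the genes did. C8a and C8b are neighbours in the mouse genome, with probes at chr4:104192313-104192372 and chr4:104180833-104180892 in build mm7 of the array files, whereas the C8g probe is at chr2:25506231-25506360. The C9 probe, for the subunit that polymerises into the pore, had low-NP levels of 9.5 and 10.55 and NP levels of 6.98 and 6.86, and it was above background in the NP pool on 1 of 2 arrays, so its mean ratio of -3.11 is less well measured. C6, which joins C5b, was the exception in size: NP levels of 10.43 and 10.29 against 11.39 and 11.50 gave ratios of -0.96 and -1.22.

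The 60-base probes behind the terminal readouts are shown because the ratios rest on them alone, as each of these genes had 1 probe.
Hc: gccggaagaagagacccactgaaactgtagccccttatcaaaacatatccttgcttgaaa
C8g: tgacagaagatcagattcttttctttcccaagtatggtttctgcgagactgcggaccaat
C9: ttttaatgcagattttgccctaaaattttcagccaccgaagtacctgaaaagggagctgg
They are printed in the 5′ to 3′ direction as in the array files, with no part marked. Their GC content was 45%, 43.3% and 41.7%.

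Fluid-phase regulators held the largest ratio of all members. Cfi, the protease factor I that cleaves C3b and C4b, had levels of 8.81 and 7.09 in NP spleen and 14.73 and 14.87 in low-NP spleen, ratios of -5.93 and -7.78. C4bp, whose product is a cofactor of factor I on C4b, had levels of 9.41 and 7.31 against 14.81 and 14.93, ratios of -5.41 and -7.63. Their means, -6.85 and -6.52, were below those of Mbl2 and Hc, although on array 1 C4bp was not below Mbl2. In both the low-NP levels were nearly equal on the 2 arrays while the NP levels differed by over 1 log2 unit. Vtn, vitronectin, which keeps the terminal complex from inserting into membranes, had levels of 11.11 and 10.45 against 15.62 and 15.72, ratios of -4.50 and -5.27. Clu, clusterin, another inhibitor of the terminal complex that many cell types make, had 15.45 and 15.31 against 15.75 and 15.81, and its ratios of -0.30 and -0.50 were not called.

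Promoters were searched because these genes moved together. Of the 31 members, 23 matched RefSeq promoters of GRCm38.p6, with 25 promoters in all, and the 250 bases before the gene start were searched on both strands for 6 motifs of liver and myeloid factors. The HNF1 motif, a string of 10 letters that leaves the seventh free, was in 0.371% of all 32851 promoters and in 2 of the 25 of members, those of C4bp and Hc, which are printed as 2 of the members with the lowest spleen ratios, with the matched letters in capitals.
C4bp: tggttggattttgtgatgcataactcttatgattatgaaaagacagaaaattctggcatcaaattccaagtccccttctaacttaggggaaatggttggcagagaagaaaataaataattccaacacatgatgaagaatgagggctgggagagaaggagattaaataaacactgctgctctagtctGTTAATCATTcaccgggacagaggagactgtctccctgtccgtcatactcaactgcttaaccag
Hc: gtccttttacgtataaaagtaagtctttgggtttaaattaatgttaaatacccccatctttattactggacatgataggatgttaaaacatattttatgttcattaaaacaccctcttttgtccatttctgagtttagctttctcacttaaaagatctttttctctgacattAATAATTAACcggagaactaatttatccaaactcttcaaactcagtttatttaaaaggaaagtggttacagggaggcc
The C4bp window is chr1:130661619-130661868 on the minus strand, with the match starting 64 bases before the gene start, and the Hc window is chr2:35061413-35061662 on the minus strand, with the match on the reverse strand starting 78 bases before it. The C/EBP motif TTNNGCAA was in 9.56% of all promoters and in those of C1s, C3 and C9, the STAT motif TTCNNNGAA in 7.02% and in those of C8a and Masp2, and the NF-kB motif in 1.41% and in that of C3ar1. The HNF4 motif CAAAGTCCA was in 0.384% of all promoters and in none of the 25. A match describes letters in the window and is not a shown binding site.

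C3, the component that all routes cleave, had spleen levels of 16.63 and 16.10 in the NP pool and 17.37 and 17.50 in the low-NP pool, ratios of -0.74 and -1.40. It was called lower, by much less than the lectin, terminal and fluid-phase genes. Its second, dimmer probe gave -0.89 and -0.58, just short of 1.5-fold on array 2, and under median centring in place of loess C3 was not called, with a mean of -1.37. The C3 probe is spotted 10 times on the array, and the ratios of its spots within a spleen array had an SD of 0.0458 over 10 spots and 0.0412 over 8, so that the difference between the arrays was larger than the spread of spots. Cfb, factor B, the protease of the alternative convertase, had levels of 13.96 and 13.99 against 15.42 and 15.33 and ratios of -1.45 and -1.34. Cfd, factor D, which cleaves factor B and is made mostly by adipocytes and macrophages, had ratios of -0.22 and -0.19. Cfp, properdin, a stabiliser of the convertase made by myeloid cells, had 0.27 and 0.07, and was not called.

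The classical pathway genes divided in spleen. C1qa, C1qb and C1qc, the 3 chains of C1q, were not called, with ratios of -0.10 and 0.45 for C1qa, -0.10 and 0.51 for C1qb and 0.05 and 0.20 for C1qc. C1qa and C1qb thus changed sign between the arrays. C1qc, for example, had levels of 15.08 and 15.33 in NP spleen and 15.03 and 15.13 in low-NP spleen, and the pools overlapped. C1s, a protease of the C1 complex, had ratios of -0.56 and -0.58, just inside 1.5-fold (0.58 on this scale), and C2 had -0.63 and -0.55, past it on array 1 only. C4b, the C4 gene, had levels of 13.24 and 13.22 against 14.18 and 13.92, and its ratios of -0.94 and -0.71 were called.

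The C4b probe is shown since the array files list it for the transcripts of both C4b and its near-identical copy C4a, so that the value may hold signal of both genes.
C4b: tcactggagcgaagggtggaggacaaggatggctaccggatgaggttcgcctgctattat
It lies at chr17:32815561-32815620 in mm7. The dimmer probe named for C4a, which the files also list for both transcripts, had mean ratios of 0.14 in liver and -0.13 in spleen. C2, Cfb and the C4 genes lie in 1 stretch of chromosome 17, with probes of C2 at chr17:32958754-32958813 and of Cfb at chr17:32952681-32953037, and their spleen means were -0.59 for C2, -1.40 for Cfb and -0.82 for C4b.

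Membrane regulators and receptors had smaller spleen ratios than the lectin and terminal genes. Cd59a, which blocks the pore on a cell's own membrane, had levels of 10.08 and 9.68 in the NP pool against 10.77 and 10.74, and its ratios of -0.69 and -1.06 were called. Cd55, which breaks up C3 convertases, had ratios of 0.19 and -0.12. Cr2, in mice the gene of complement receptors 1 and 2 on B cells and follicular dendritic cells, had 0.36 and 0.04, Itgam, the alpha chain of complement receptor 3, had 0.18 and 0.18, and Itgb2, the beta chain of receptors 3 and 4, had 0.16 and 0.09. None of these 4 genes passed 1.5-fold on either spleen array. C3ar1 and C5ar1, the receptors of the anaphylatoxins C3a and C5a, were not measured in spleen, as their probes were above background on 1 of 2 arrays in each pool.

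In liver, where most of these proteins are made, far fewer members differed between the diets. Of 30 measured members, 3 were called lower and 0 higher in the NP pool, against 3.63% and 0.0702% of all genes (3.7% in either direction), and the members' median ratio was 0.06 beside 0.00 over all genes. The 3 were Cr2, Itgb2 and Cfp, which are genes of B cells and myeloid cells, and none of the 6 terminal, 4 lectin, 6 classical or 4 fluid-phase genes was called. With 1.5-fold on 1 array alone, 6 members were lower on array 2, and 5 were lower and 5 higher on array 1. Over all genes, 11.3% were lower and 0.444% higher on array 2 alone, and 4.11% lower and 2.02% higher on array 1 alone. A count on 1 array cannot be smaller than the count on both, as a call needs both.

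Markers moved with the liver calls too. The NP liver pool had 7 of 9 B cell markers called lower (median ratio -2.10), 5 of 8 T cell markers (-1.88), 4 of 10 macrophage markers (-0.52), 1 of 6 neutrophil markers (-0.45), 1 of 7 stromal and endothelial markers (-0.22) and 7 of 7 exocrine pancreas markers (-1.05), with 0 of 9 hepatocyte markers (0.19). The B cell markers, counted without Cr2, had a median level of 8.41 in the NP liver pool (7.70 to 9.63, with 7 of 9 above background on both arrays) and 10.6 in the low-NP pool (8.38 to 14.2). Their part in the complement calls was not tested.

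Cr2 had liver levels of 8.72 and 7.69 in the NP pool and 9.82 and 10.76 in the low-NP pool. The pools did not overlap, and the ratios of -1.10 and -3.07 differed by nearly 2 log2 units between the arrays. A second, dimmer Cr2 probe gave liver ratios of -0.02 and -0.23, so the call rests on the brighter probe, and with the median over both probes Cr2 was not called. From the scanner software's processed signals, the brighter probe gave a mean of -4.39 in place of -2.08. In spleen both probes lay above 0, at means of 0.20 and 0.17. The 2 probes are printed because they disagree in liver.
Cr2, brighter probe: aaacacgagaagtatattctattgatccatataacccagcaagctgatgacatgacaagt
Cr2, dimmer probe: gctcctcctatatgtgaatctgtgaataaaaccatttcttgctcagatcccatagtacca
In mm7 they lie at chr1:194695473-194695532 and chr1:194717651-194717710 on the minus strand, and the array files list both for the same transcript.

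Itgb2 had levels of 9.74 and 9.28 in NP liver and 10.71 and 11.01 in low-NP liver. Its pools did not overlap, with ratios of -0.97 and -1.73. Its partner Itgam was above background in the low-NP liver pool on both arrays (7.95 and 8.19) and in the NP pool on neither (7.88 and 7.80). Its ratios of -0.07 and -0.40 were not called, and their mean of -0.23 rests on that dim NP signal. Cfp had levels of 12.42 and 12.29 against 13.14 and 13.25, and ratios of -0.71 and -0.96, and with median centring in place of loess (mean -0.63) it was not called. Its probe, shown as that of the third gene called in liver, lies at chrX:19358766-19358825 in mm7 and is its only one.
Cfp: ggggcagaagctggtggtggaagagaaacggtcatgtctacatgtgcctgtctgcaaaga
Cd55 came near, with ratios of -0.26 and -1.15, the second past 1.5-fold. C3ar1 had 0.03 and -0.15, and C5ar1 was above background in no liver channel.

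The C1q chains had liver ratios of -0.65 and -0.15 for C1qa, -0.68 and -0.10 for C1qb, and -0.39 and -0.39 for C1qc. All 6 values lay below 0 and none of the chains was called, although C1qa and C1qb were past 1.5-fold on array 1. The 3 genes are neighbours on chromosome 4, with probes between 136259100 and 136274990 in mm7. The promoter of C1qc was the only one of the 25 member promoters with the PU.1 motif GAGGAAGT, a motif of a myeloid factor that was in 2.44% of all promoters. Its window, chr4:136892915-136893164 on the minus strand of GRCm38.p6, has the match in capitals, on the reverse strand and starting 195 bases before the gene start.
C1qc: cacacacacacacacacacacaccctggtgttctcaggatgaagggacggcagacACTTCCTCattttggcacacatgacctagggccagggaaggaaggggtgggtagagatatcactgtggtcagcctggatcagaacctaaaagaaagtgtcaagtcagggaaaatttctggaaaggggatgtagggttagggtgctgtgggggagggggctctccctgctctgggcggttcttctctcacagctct

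**Figure D2:**
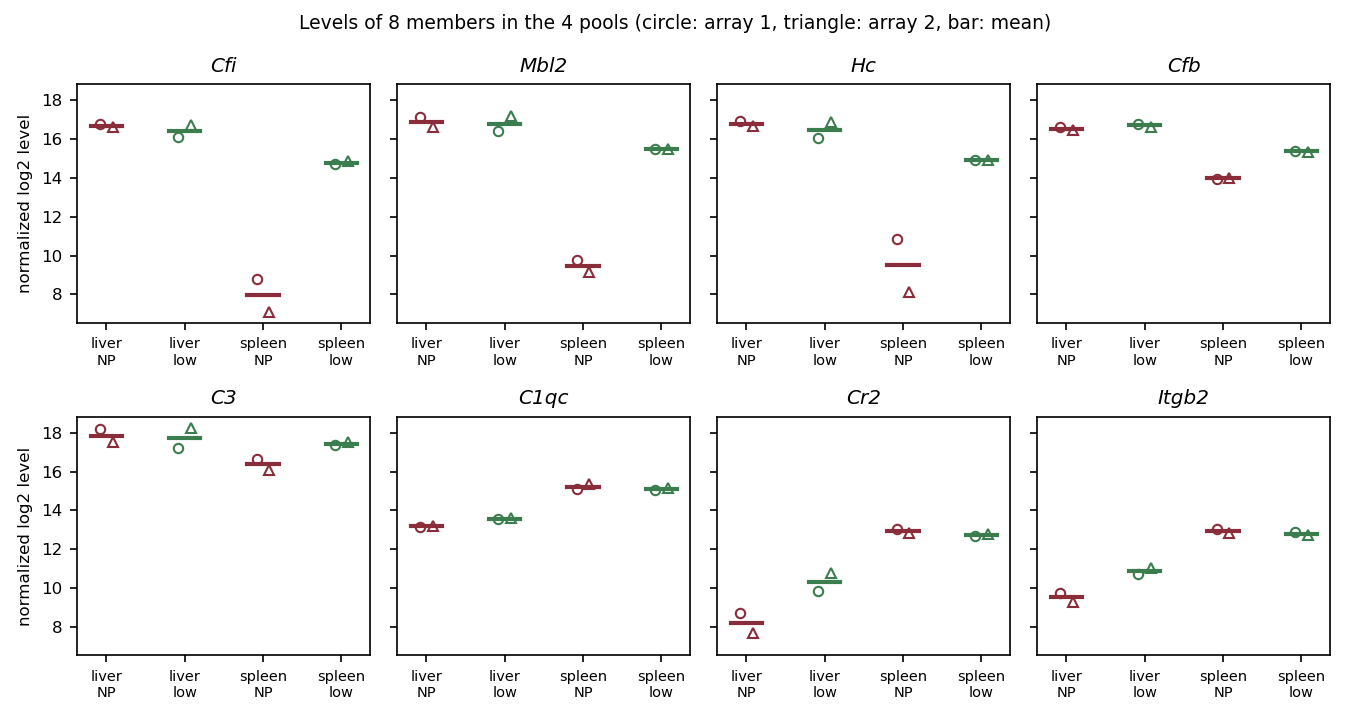
Normalized log2 level of 8 members in the 4 pools, with circles for array 1, triangles for array 2 and bars for their mean. The plot shows Cfi, Mbl2 and Hc between 16.06 and 17.21 in both liver pools, between 14.73 and 15.50 in low-NP spleen and between 7.09 and 10.87 in NP spleen, C3 and Cfb with a smaller drop, and Cr2 and Itgb2 lowest in NP liver.

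For 17 of 30 members the liver ratio changed sign between the arrays: the pool in Cy5 was the higher for 10 of them and the pool in Cy3 for 7. Sign changes were common in liver: of all 17100 measured genes, only 5258 lay below 0 and 5000 above 0 on both arrays. For members these counts were 10 and 3. The largest ratios that changed sign belonged to 6 members with Cy5 the higher. C3 had liver levels of 18.19 and 17.52 in the NP pool and 17.19 and 18.27 in the low-NP pool. The ratio was 1.00 on array 1 and -0.75 on array 2, past 1.5-fold in opposite directions. Its spots spread little, with an SD of 0.0548 over 9 spots on array 1 and 0.0655 over 10 on array 2, and 3 of its NP spots on array 1 were saturated. The second C3 probe gave 0.12 and 0.40. Vtn did the same as the main C3 probe, with 0.77 and -0.63, whereas 0.24% of all measured genes passed 1.5-fold in opposite directions in liver. Mbl2 (0.76 and -0.57), Hc (0.90 and -0.24), Cfi (0.66 and -0.11) and C4bp (0.57 and -0.21) had the same order of signs. For all 6 the sign thus depended on which array was read.

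The remaining members had liver ratios that did not reach 1.5-fold on either array. Masp1 (0.36 and 0.14), Masp2 (0.05 and 0.10), C8a (0.04 and 0.18), C8b (0.30 and -0.04) and C8g (-0.02 and 0.01) stayed within 1.5-fold on both arrays. Likewise C2 (0.32 and -0.01), C6 (-0.09 and 0.18), C9 (-0.07 and 0.45), C1s (-0.12 and 0.18), C4b (-0.20 and 0.42), Mbl1 (-0.32 and 0.53), Cfb (-0.17 and -0.14), Cfd (-0.13 and -0.37), Clu (0.28 and -0.17) and Cd59a (-0.03 and 0.37) were not called. The same genes that were 8.61- to 116-fold lower in NP spleen had thus mean liver ratios between -0.01 and 0.33.

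Setting the tissues side by side showed where each gene was high. Liver and spleen levels were compared within a diet and between arrays of the same dye order, and a member was counted as apart when both comparisons passed 2-fold. In the NP pools, 19 of 30 members were higher in liver and 9 higher in spleen, beside 13.6% and 14.7% of 19050 gene names. In the low-NP pools the numbers were 14 and 8, beside 8.51% and 9.32%. The median size of the gap between the tissues was 2.99 log2 units in the NP pools and 1.58 in the low-NP pools, whereas over all genes it was 0.61 and 0.47.

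Every one of the 28 members apart in the NP pools had a smaller mean gap in the low-NP pools. They were picked by their gap in the NP pools, which favours a smaller gap in the other pools beforehand. The same count over all genes is not given here, so this describes the members only. Cfi was 427-fold higher in liver than in spleen in the NP pools and 3.06-fold in the low-NP pools, C4bp 305-fold and 2.94-fold, Mbl2 176-fold and 2.50-fold, and Hc 159-fold and 2.92-fold. These are means of array pairs that differed: the NP gap was 7.96 and 9.52 log2 units for Cfi and 6.08 and 8.54 for Hc on the pairs of arrays 1 and 2, and 7.40 and 7.51 for Mbl2. Cfi had the widest gap in the NP pools. The NP spleen levels of Cfi and C4bp were low on array 2, at 7.09 and 7.31, so the size of their NP folds is uncertain. In the low-NP pools the widest in favour of liver were those of C9 (5.44-fold) and Masp1 (5.30-fold), which differed from each other by less than their arrays did. On the spleen side, Cr2 was 26.1-fold higher in spleen in the NP pools and 5.38-fold in the low-NP pools, Itgb2 10.6-fold and 3.83-fold, and Cfp 7.65-fold and 3.81-fold. Cfd was nearly the same on both diets, 6.40-fold and 6.20-fold higher in spleen.

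C4bp, Cd55 and Cr2 belong to a family of regulators and receptors built of the same short repeats. All 3 lie on chromosome 1 in mm7, with the C4bp probe at chr1:130540229-130540288 and that of Cd55 within chr1:130344430-130352416, close to each other, and Cr2 farther along. C4bp was 305-fold higher in NP liver, while Cd55 was 5.74-fold and Cr2 26.1-fold higher in NP spleen. The gaps of C4bp were 7.35 and 9.16 log2 units on the pairs of arrays 1 and 2, and those of Cr2 were -4.30 and -5.11.

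**Figure D3:**
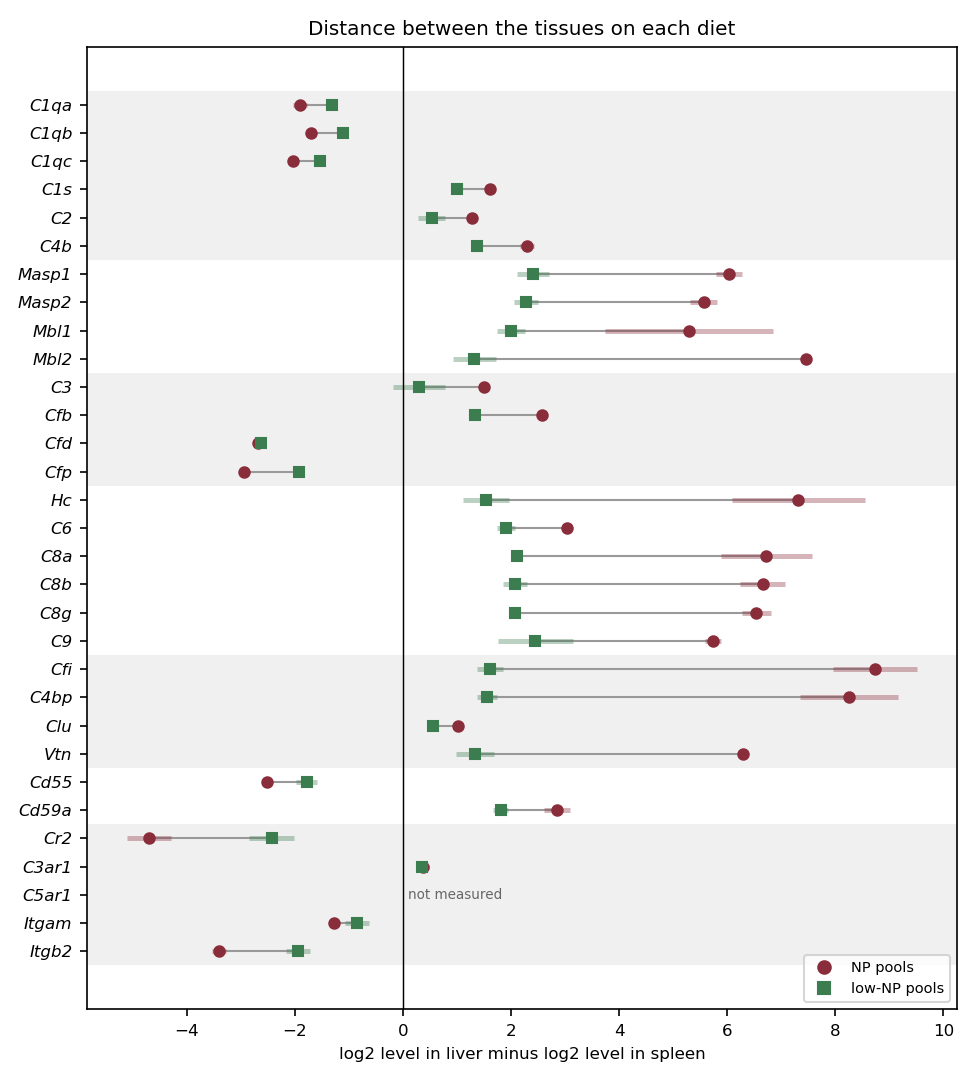
Log2 level in liver minus log2 level in spleen for each member, in the NP pools (circles) and the low-NP pools (squares), with pale bars from array 1 to array 2 and values right of 0 higher in liver. NP gaps run from -4.71 (Cr2) to 8.74 (Cfi), while low-NP gaps stay between -2.63 and 2.44.

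The levels can also be read as shares of the other tissue. For the 12 members at least 16-fold higher in NP liver than in NP spleen, the low-NP spleen level was a median of 23.6% of the NP liver level (15.9% to 37.9%), against 1.03% for the NP spleen level (highest 2.56%). The 12 members thus stood at a like share of the liver level in low-NP spleen, although their folds between the diets ran from 8.61 for C9 to 116 for Cfi. The other 563 gene names with such a gap had a median share of 20.2% (quartiles 17.0% and 24.9%). Vtn (37.9%) and Mbl2 (37.5%) had the highest shares of members and Masp1 (15.9%) and C9 (16.1%) the lowest. In the other direction only Cr2 qualified: its low-NP liver level was 16.2% of its NP spleen level, beside a median of 18.0% over 217 other genes. With processed signals the spleen shares were lower for both sets, 12.6% for the 12 members and 11.7% for the 563 other genes.

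Members that spleen also had in the NP pool were added by a second measure, chosen after values had been seen: the low-NP minus the NP level in the low tissue, on the linear scale, as a percent of the NP level in the high tissue. Over the 20 members with a mean at least 2-fold higher in NP liver, this rise in spleen had a median of 20.7% (11.5% to 39.0%), beside 10.5% over 3023 other genes (quartiles 7.62% and 14.5%). The sets are unlike, as 12 of the 20 members but 563 of the 3023 other genes were at least 16-fold higher in NP liver. Within that gap the medians were closer, 21.7% for the 12 members and 17.4% for the other genes (quartiles 13.8% and 22.7%). The value was 27.3% for Cfb, 39.0% for C3 and 26.8% for Cfi, although their log2 ratios were -1.40, -1.07 and -6.85. The C3 value was the least certain, at 22.6% and 61.1% on the pairs of arrays 1 and 2. Cd59a had the smallest value, 11.5%. With processed signals the medians were 10.9% for the 20 members and 6.68% for the other genes.

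For the 9 members higher in NP spleen, the same measure in liver had a median of 9.57% (2.98% to 14.5%), beside 10.1% over 3248 other genes (quartiles 6.56% and 13.3%). On the pairs of arrays 1 and 2 taken alone, the medians were 8.03% and 12.5% for the members and 4.82% and 14.7% for the other genes, so that the order turned. Itgb2 stood highest at 14.5% and Cr2 next at 12.4%, with array values of 5.80% and 21.3%. Cfd, which differed little between the diets, stood lowest at 2.98%. Of the C1q chains, C1qa had 8.61% and C1qb 9.57%, but with array values of 16.7% and 2.73% and of 18.9% and 2.2%, whereas C1qc had 7.48%, with 8.03% and 6.97%.

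**Figure D4:**
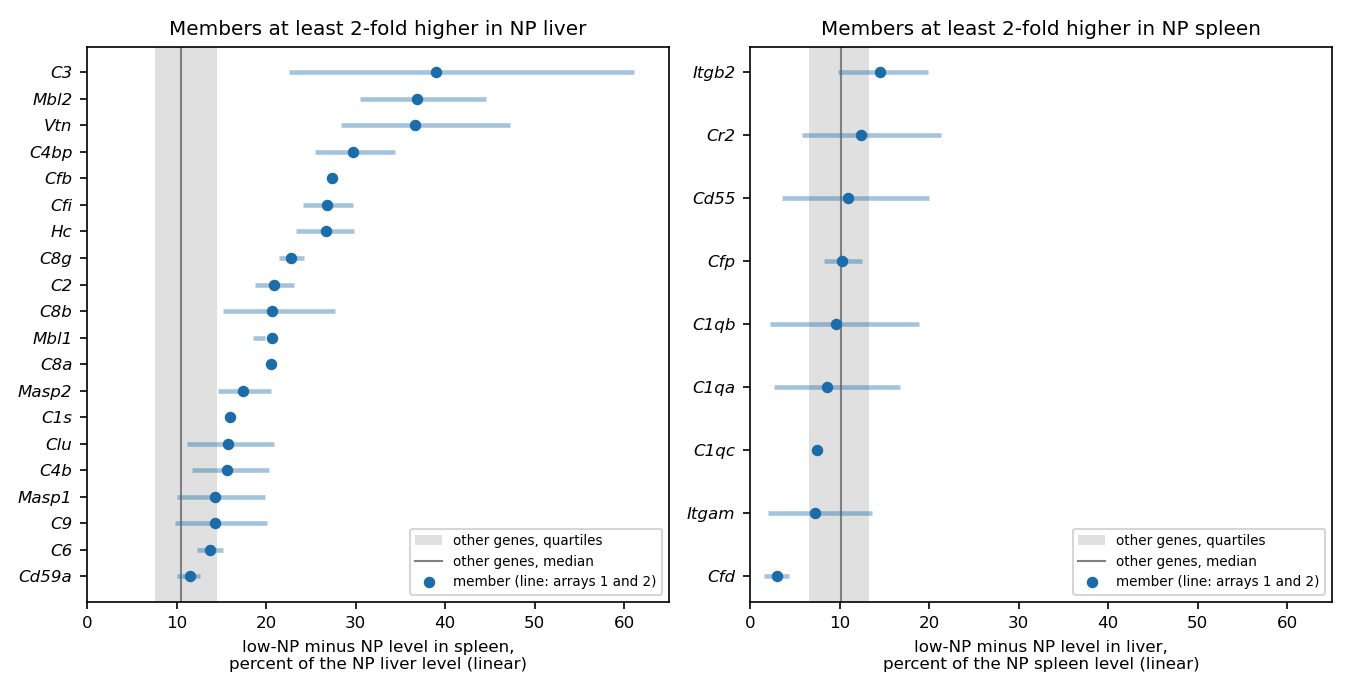
Low-NP minus NP level in the tissue with the lower level, as a percent of the NP level in the other tissue (linear scale), for members higher in liver (left) and in spleen (right), with lines from array 1 to array 2. The grey band holds the middle quartiles of other genes and the line in it their median. Of the left panel's 20 members, all lie right of that median of 10.5%, and the right panel's 9 members lie on both sides of 10.1%.

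The other genes of the system, 30 more names on the array, were listed with the same calls. In spleen, 13 of 29 measured were called lower in the NP pool and 0 higher, against 6.33% and 0.0431% of all genes. Their median ratio was -0.42, beside -0.02 over all genes. Among them were the carboxypeptidases that trim anaphylatoxins, Cpb2 (-4.66), Cpn2 (-3.81) and Cpn1 (-2.93), the collectins Colec10 (-4.23) and Colec11 (-2.71), and the pentraxins Apcs (-2.17) and Crp (-1.66). Susd4 (-1.72), the macrophage receptor Vsig4 (-1.47), C1r (-1.06) and Serping1, the C1 inhibitor (-0.81), were called as well. In liver, 2 of 26 were called lower and 0 higher, against 3.63% and 0.0702% of all genes. Among those lower was Itgax (-1.56), the alpha chain of complement receptor 4, which pairs with Itgb2. Vsig4 is also among the macrophage markers above.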

How the data were processed

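Total RNA of livers and spleens, pooled by diet, was labelled with Cy3 and Cy5 and hybridised to 4 Agilent whole-genome mouse arrays. The authors' deposited scanner files hold the mean foreground and median background intensity of each spot in both dyes, with flags for spots above background, saturated or outlying, per the file headers, made with Agilent Feature Extraction 9.5.3.1 per the submitters' processing notes. The deposited value table holds log10 ratios, per a comparison with the scanner log10 ratio in the same files: its columns correlated with it at -0.992, 0.991, -0.993 and 0.998, so all columns hold low NP over NP, opposite to the direction used here. Its column medians were 0.02, -0.07, -0.01 and -0.04, and whether it was centred is unknown.

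Of 45018 spots per array, 1639 controls and 109 to 180 outlier spots were left out. In limma 3.58.1 (R 4.3.3) normexp with an offset of 50 corrected the background, log ratios were normalized by loess within each array, and levels were scaled between arrays with Aquantile. Spots of a probe were averaged, and of 41174 probes the brightest stood for each gene name. Python 3.11.15, numpy 2.4.6, pandas 2.3.3 and matplotlib 3.10.9 did the rest. The number of arrays limits the precision: each value is the mean of 2 arrays of 1 pool per diet and tissue, no test of the diets was run. The calling script was checked on simulated arrays. All members were named, and of the other complement genes those called, of which a few are not reported here. The members and lists were chosen with earlier results of these data known. The alternatives were the background correction, the scanner software's processed signals, median centring, the filter on dim probes, the median over probes, the deposited value table, each array alone, a 2-fold threshold, leaving out genes higher in the other tissue, and other between-array scalings. Positions of probes were taken from the array files (mm7), and exon or intron placement was not analysed here.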

Additional observations from a re-analysis of the deposited data

Results flagged for a closer look

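For 8 members both liver arrays lay on one side of 0 and both spleen arrays on the other, and the difference between the tissues was not tested. No size threshold was used, so liver ratios near 0 count, such as 0.04 and 0.18 for C8a. The share of all genes with such opposite sides is not given here. The values are mean log2 ratios in liver minus those in spleen. Of the genes lower in NP liver, Cr2 had a difference of -2.28, Itgb2 of -1.47, Cfp of -1.0, C1qc of -0.51 and Itgam of -0.41, the last from an NP liver signal that was above background on neither array. The other 3 were lower in NP spleen, with differences of 4.61 for C8a, 3.63 for Masp1 and 3.29 for Masp2. The genes with larger spleen ratios, such as Cfi, C4bp and Mbl2, are not among the 8, as their liver ratios had opposite signs on the 2 arrays.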

How the results depend on the processing

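Of the 17 members called in spleen, 16 kept the call under the 9 alternative settings applied to single members, and C3 lost it under median centring (C9 was not measured where both channels had to be above background). Not all settings could undo a call. Each array alone and no filter on dim probes could not, and the stricter filter could only leave a gene out. The deposited table and the processed signals gave nearly equal values, such as -7.64 for Cfi in spleen with both. In liver 1 of 3 kept it: Cfp lost the call under median centring and Cr2 with the median over probes. Of the members not called, 11 of 12 in spleen and 18 of 27 in liver stayed so. The liver count of 3 ranged from 6 to 10 with 1 array left out, was 1 at 2-fold on both arrays, and was 0 of 21 without members at least 2-fold higher in NP spleen than in low-NP liver. Without members at least 2-fold higher in NP liver than in low-NP spleen, the spleen count of 17 became 1 of 12, C3. Calls over all genes fell likewise when such genes were left out. The share called lower became 0.796% of 16201 genes in spleen, from 6.33%, and 0.357% of 14568 in liver, from 3.63%. The liver median of 0.06 was 0.37 under median centring and ranged from -0.145 to -0.0508 with 1 array left out, and the spleen median of -1.07 was -1.30 under median centring and -0.87 without the filter. Median centring moved the median of all spleen genes to -0.15, and processed signals moved those of liver and spleen to 0.11 and 0.10. Over all genes the liver calls were 621 lower and 12 higher, against 1755 and 303 with processed signals, 1762 and 312 in the deposited table, 1333 and 18 without background correction, 324 and 11 under median centring, and 1924 and 76 without array 1. With processed signals the liver ratios of Cr2 and Itgam were -4.39 and -1.81, both called. The counts of members apart between the tissues stayed within 27 to 29 in the NP pools and 21 to 25 in the low-NP pools, but with processed signals the latter were 20 higher in liver and 5 in spleen, and the median rise in spleen was 10.9% against 20.7%. The median share in spleen was then 12.6% against 23.6%, and it ranged from 23.6% to 26.8% with 1 array pair left out. The cause of these changes was not tested. No paired analysis was possible because replicate numbers go with the dye orientation and each diet and tissue is 1 pool. Probes near background limit C9 in NP spleen, Itgam in NP liver, and C3ar1 and C5ar1 in both tissues. Cfi, C4bp, Masp1, Mbl1, C8a and C8b were flagged above background in NP spleen, but their array 2 levels were only 6.99 to 7.49. The C9 level there was 6.86. The size of their spleen ratios is thus uncertain, and that of Cfi was -7.64 with processed signals against -6.85. The median rise in liver of the 9 members higher in spleen was 8.03% on array pair 1 and 12.5% on pair 2, against 4.82% and 14.7% for the other genes, so their order turned.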
